A study of Mus musculus with 14 samples.

Results

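The 10 genes described here encode enzymes of mitochondrial folate metabolism (Mthfd2, Mthfd1l, Shmt2 and Aldh1l2), serine synthesis (Phgdh, Psat1 and Psph), asparagine synthesis (Asns) and proline synthesis (Pycr1 and Aldh18a1). They were taken by name as enzymes known to be induced by mitochondrial stress, and all 10 were present among the 42396 genes listed in each of the 2 count tables. All 10 also passed the filter on low values, a CPM (a gene's count scaled to a common library total) above 1 in at least 1 library of the experiment, in both experiments.

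RNA sequencing (RNA-seq) was performed on whole hearts of 14 female mice, 1 library per mouse as far as the labels say. All mice were FS6KD, that is, homozygous for a gene-trap allele of Ndufs6 (Ndufs6 gt/gt) on a mixed C57BL/6J and 129/Ola background. Ndufs6 encodes a subunit of respiratory complex I, and its knockdown gives a mitochondrial cardiomyopathy. In the knockout experiment, 4 Atf3+/+FS6KD hearts were compared with 4 Atf3-/-FS6KD hearts at 12 weeks. The Atf3-/- allele is a large CRISPR-Cas9 deletion from exon 2 to exon 4, made in FS6KD eggs and kept by intercrossing founders. In the AAV experiment, 3 hearts of FS6KD mice injected as neonates with MyoAAV2-shCtrl were compared with 3 injected with MyoAAV2-shAtf3, a muscle-directed adeno-associated virus (AAV) that carries a short hairpin RNA (shRNA) against Atf3, and the series' description puts these hearts at 12 weeks after injection. Hearts without the Ndufs6 knockdown were not analysed here, so that the induction of these enzymes by the knockdown itself was not measured. The question asked of the 10 genes was whether loss of Atf3 altered their transcripts in hearts that all carried the complex I defect.

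In the cell, mitochondrial folate enzymes take the 1-carbon unit of serine and release it as formate for purine and thymidylate synthesis in the cytosol. SHMT2 splits serine into glycine and a 1-carbon unit on tetrahydrofolate, MTHFD2 oxidizes that unit, MTHFD1L releases it as formate, and ALDH1L2 instead oxidizes it to carbon dioxide with the formation of NADPH. Serine is made from a glycolytic intermediate by PHGDH, PSAT1 and PSPH in turn, proline from glutamate by ALDH18A1 and then PYCR1, and asparagine from aspartate by ASNS. Most of these genes are known targets of ATF4, the transcription factor of the integrated stress response, and Mthfd2 is widely used as a marker of that response in muscle and heart with a respiratory chain defect.

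RefSeq promoter windows (GRCm38.p6, 250 bases before to 50 bases after the start of transcription) were found for 9 of the 10 genes, in 10 windows since Psat1 had a pair. They were searched on both strands for TGATGNAA, the composite element bound by C/EBP-ATF dimers including ATF4. The element was present in 2 of the 10 windows, those of Asns and Pycr1, against 3.97% of 32851 mouse promoter windows. The cAMP response element TGACGTCA was in none of the 10 windows (1.79% of all windows), and neither was the AP-1 site TGANTCA (7.81% of all). The E-box CACGTG, a palindrome, was in 1 window, that of Aldh18a1 (7.15% of all). The stretches below, of 60 bases each, are given because the levels of these 5 genes carry the comparisons that follow. They come from chr6:7693210-7693269 (Asns), chr11:120643818-120643877 (Pycr1), chr19:15925060-15925119 (Psat1), chr6:83317605-83317664 (Mthfd2) and chr19:40588490-40588549 (Aldh18a1), all on the minus strand, with TGATGNAA or CACGTG in capitals where the search found them.
Asns: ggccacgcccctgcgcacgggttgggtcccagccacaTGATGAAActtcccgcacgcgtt
Pycr1: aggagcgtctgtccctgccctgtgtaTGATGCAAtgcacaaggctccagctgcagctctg
Psat1: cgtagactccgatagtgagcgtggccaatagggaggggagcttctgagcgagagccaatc
Mthfd2: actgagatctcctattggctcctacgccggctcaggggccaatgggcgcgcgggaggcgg
Aldh18a1: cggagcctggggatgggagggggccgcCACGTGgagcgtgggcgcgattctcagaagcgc
In Asns the element began 23 bases before the start, and in Pycr1 103 bases before it. The stretches of Psat1 and Mthfd2 are the last 60 bases before the start that RefSeq's window uses and hold none of the 4 motifs. For Mthfd2 that start lies inside the annotated span of the gene, which longer transcript models extend upstream, and no window at the outer end was searched. A match or its absence in these windows is a description of the letters only, since elements outside the window were not searched.

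Libraries held 33914931 to 134920825 counts in the knockout experiment and 30085432 to 40534913 in the AAV experiment, and the 10 genes took 0.012 to 0.0214% of them. In both genotypes replicates 3 and 4 were sequenced about as deeply as each other and far deeper than replicates 1 and 2, so that depth was balanced between genotypes. Ndufs6 itself was low in all libraries (2.4 to 3.72 CPM before TMM scaling). The targeted gene did not check the labels. Atf3, an activating transcription factor induced by stress, stood at 25.8, 6.90, 6.91 and 6.36 CPM in Atf3+/+FS6KD and at 25.6, 37.6, 22.7 and 14.3 CPM in Atf3-/-FS6KD. Which exons these counts came from cannot be seen in a table per gene. For the AAV hearts, Atf3 was at 10.1, 13.3 and 14.1 CPM in the hearts labelled shCtrl, and at 21.2, 12.2 and 16.5 CPM in the hearts labelled shAtf3. There the deposited column names also read the other way round from the sample labels. The labels were followed, so every direction in the AAV experiment holds for the hearts labelled shAtf3, and an exchange of the groups would turn every sign. Markers of other cells moved with the groups. All 9 fibroblast markers had higher means in Atf3-/-FS6KD (summed 3487 to 4236 CPM against 2768 to 3810 CPM). Of them 6 had an unadjusted p below 0.05 in edgeR, against 10.1% of all genes tested. In the hearts labelled shAtf3 all 9 had lower means (summed 2993 to 3073 against 3805 to 4837 CPM). There 4 had an edgeR adjusted p below 0.05, against 0.539% of all genes tested. The 9 macrophage markers had the same directions (377 to 551 against 345 to 425 CPM, and 452 to 511 against 514 to 579 CPM). Of the 7 markers of proliferating cells, 5 of the 6 that passed the filter were higher in Atf3-/-FS6KD (14.5 to 26.5 against 9.18 to 15.7 CPM) and all 7 were lower in the hearts labelled shAtf3 (11.9 to 18.5 against 15.5 to 27.3 CPM). Summed cardiomyocyte markers were at 46650 to 63840 CPM in Atf3-/-FS6KD and 58950 to 74260 CPM in Atf3+/+FS6KD, with all 9 lower after knockout and 8 of 9 higher in the hearts labelled shAtf3. Of 8 endothelial markers 6 were higher after knockout and 7 in the hearts labelled shAtf3, and all 5 adipocyte markers were below the filter. Although the tissue is labelled heart, the atrial markers Myl7, Sln and Bmp10 were below 1 CPM in all libraries, and only Myl4 and Nppa of the 5 atrial markers passed. Both had lower means in the hearts labelled shAtf3, where Nppa was at 291 ± 42.0 CPM against 608 ± 299 CPM (SD, n = 3 each, log2 fold change -1.06, edgeR adjusted p = 0.247) with overlap, and after knockout Myl4 had 0.12 and Nppa -0.15. In bulk hearts a change in the number of cells of a type and a change in RNA per cell cannot be told apart, and the part of these markers in the values below was not tested.

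Mthfd2, on chromosome 6 (83305704 to 83326011, minus strand), differed widely between hearts of 1 genotype. In Atf3+/+FS6KD it was at 21.9, 24, 54.9 and 36.8 CPM in replicates 1 to 4, from 917, 781, 6412 and 4870 counts. In Atf3-/-FS6KD it was at 19, 24.6, 25.9 and 12.3 CPM, from 670, 936.5, 3040 and 1533 counts. The first pair of Atf3+/+FS6KD hearts thus lay inside the range of the Atf3-/-FS6KD hearts, the other pair lay above all of them, and the groups overlapped. The mean of the Atf3+/+FS6KD hearts was 34.4 ± 15.1 CPM, and that of the Atf3-/-FS6KD hearts was 20.4 ± 6.22 CPM (SD, n = 4 each).

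The difference gave a log2 fold change of -0.76 (SE 0.32, 95% interval -1.48 to -0.04), with an unadjusted p of 0.0405 and an adjusted p of 0.471 in edgeR's quasi-likelihood test with Benjamini-Hochberg adjustment. It was not called, and the adjusted p ranged from 0.369 to 0.96 over all settings tried. An exact two-sided permutation test of the mean log2 CPM gave a difference of -0.71 and p = 0.171, where 0.0286 was the smallest p that the 70 splits allow. Without Atf3+/+FS6KD replicate 3 the log2 fold change was -0.45. Within replicates 1 and 2, sequenced to lower depth, it was -0.07, and within the deeper replicates 3 and 4 it was -1.26, each with 2 hearts per genotype.

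Among the AAV hearts, Mthfd2 was at 57.8, 44.4 and 57.3 CPM in the hearts labelled shCtrl, and at 64.3, 64.2 and 74.4 CPM in the hearts labelled shAtf3. All 3 hearts labelled shAtf3 lay above all 3 labelled shCtrl, and Mthfd2 was the only 1 of the 10 genes whose groups did not overlap, against 18.4% of the 15225 genes tested. The means were 53.2 ± 7.62 and 67.6 ± 5.83 CPM (SD, n = 3 each). The log2 fold change was 0.35 (SE 0.11, 95% interval 0.10 to 0.59), with an unadjusted p of 0.0106 and an edgeR adjusted p of 0.243 (0.0724 to 0.555 over all settings). The exact permutation test gave p = 0.1, the smallest that 3 against 3 can give. Without the heart labelled shCtrl replicate 2 the log2 fold change was 0.23.

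**Figure D1:**
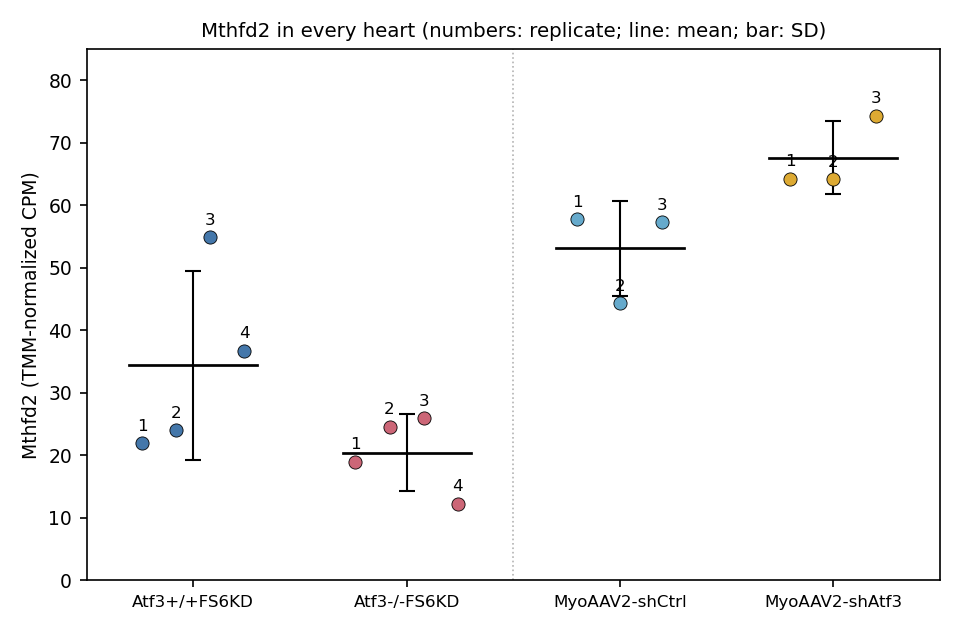
Mthfd2 in each of the 14 hearts (TMM-normalized CPM, y axis) by group as labelled (x axis), with the replicate number over each point, the mean as a line and the SD as a bar. Replicates 3 and 4 of Atf3+/+FS6KD (54.9 and 36.8 CPM) sit above the other hearts of the knockout experiment, and the 3 hearts labelled shAtf3 (64.2 to 74.4 CPM) sit above the 3 labelled shCtrl.

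With the groups as labelled, the values of Mthfd2 had opposite signs in the 2 experiments. The effect in the hearts labelled shAtf3 minus the knockout effect was 1.12 on the log2 scale (SE 0.41, 95% interval 0.23 to 2.0, unadjusted p = 0.0171, edgeR adjusted p = 0.192). The difference between the effects was not called either, and it was 0.80 without Atf3+/+FS6KD replicate 3. As labelled, 7 of the 10 enzymes had opposite signs, as did 63.4% of the 15109 genes tested in both experiments. With the AAV groups exchanged, as the column names read, Mthfd2 would be at -0.35 beside -0.76 after knockout, the same sign, and the difference would be 0.42 (SE 0.41, 95% interval -0.47 to 1.3, unadjusted p = 0.328 in edgeR). Opposite signs would then be found in 3 of the 10 enzymes and 36.6% of the genes. With all 14 libraries under 1 normalization, Mthfd2 was at 12.2 to 54.6 CPM in the knockout experiment and at 44.5 to 74.9 CPM in the AAV experiment. These ranges overlapped, and the virus and other differences between the experiments cannot be told apart.

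None of the 10 enzymes was called in either comparison. In the knockout comparison 0 of 10 had an adjusted p below 0.05 by edgeR, as for 0% of the 15592 genes tested, and DESeq2 and limma also called 0 of the 10, against 1.33% and 0% of all genes. At an unadjusted p below 0.05 there were 2 (Mthfd2 lower and Psat1 higher), against 10.1% of all genes, and this count fell to 0 with limma, with depth as a term, and when either replicate 4 of the Atf3+/+FS6KD hearts or replicate 1 of the knockout hearts was left out. Of the 10, 5 had a log2 fold change below 0, against 49.8% of all genes, and the groups overlapped for all 10, where 5.71% of all genes had groups that did not overlap. The median log2 fold change of the 10 was 0.00292, beside 0.000536 for all genes.

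In the AAV comparison 0 of 10 were called by edgeR, DESeq2 or limma, against 0.539% of 15225 genes by edgeR, 2.02% by DESeq2 and 0.558% by limma, and 1 (Mthfd2) had an unadjusted p below 0.05, against 12.7% of all genes. Of the 10, 4 had a log2 fold change below 0 (50.9% of all genes), and the median was 0.0891 beside -0.00294. For the difference between the 2 experiments 0 of 10 were called, against 0.166% of 15708 genes, and 1 (Mthfd2) had an unadjusted p below 0.05, against 17% of all genes. The comparison of log2 fold changes per enzyme shows these values with their intervals.

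**Figure D2:**
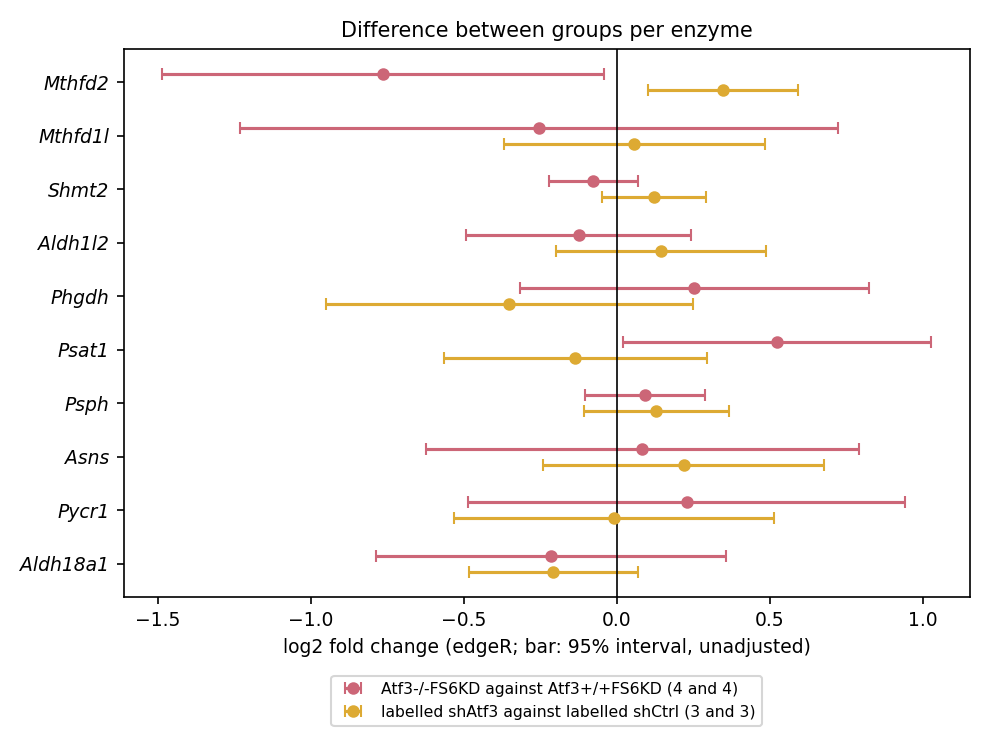
Log2 fold change of each enzyme (x axis) in the knockout comparison (4 against 4 hearts) and in the AAV comparison as labelled (3 against 3), with unadjusted 95% intervals as bars. Only the intervals of Mthfd2 in both comparisons and of Psat1 in the knockout comparison leave out 0, and none of the 10 enzymes passed the adjusted threshold.

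Among the other mitochondrial folate enzymes, Shmt2 varied little between hearts. In the knockout experiment it was at 56.9, 54.8, 61.7 and 63.0 CPM in Atf3+/+FS6KD and at 53.1, 54.9, 56.9 and 59.3 CPM in Atf3-/-FS6KD. The groups overlapped, and the log2 fold change was -0.08 (95% interval -0.22 to 0.07, edgeR adjusted p = 0.705). In the hearts labelled shCtrl it was at 52.3, 47.4 and 57.4 CPM and in the hearts labelled shAtf3 at 57.1, 56.0 and 57.8 CPM. This was a log2 fold change of 0.12 (95% interval -0.05 to 0.29, edgeR adjusted p = 0.551). Exons of Shmt2 overlap those of Ndufa4l2 on the other strand, and since the strand setting of the counting is not stated, reads there may be shared.

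Mthfd1l, the formate-releasing step, was the scarcest of the 10 per length. It ranged from 1.18 to 3.63 CPM in Atf3+/+FS6KD and from 0.976 to 2.86 CPM in Atf3-/-FS6KD, with a log2 fold change of -0.25 (95% interval -1.23 to 0.72). After AAV injection it was at 2.97 to 4.65 and 3.65 to 4.89 CPM (0.06, -0.37 to 0.48). Aldh1l2, the NADPH-forming branch, was at 14.9, 19.1, 10.8 and 16.9 CPM in Atf3+/+FS6KD and at 13.2, 14.2, 16.2 and 12.8 CPM in Atf3-/-FS6KD. Its lowest and its highest heart were both Atf3+/+FS6KD, and the lowest was replicate 3, the heart in which Mthfd2 was highest. The log2 fold change of Aldh1l2 was -0.12 in the knockout comparison (95% interval -0.49 to 0.24) and 0.14 in the AAV comparison (-0.20 to 0.49). Exons of Aldh1l2 overlap those of D10Wsu102e on the other strand.

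In serine synthesis, Psat1, the transaminase of the middle step (chromosome 19, 15905123 to 15925059), was the other enzyme with an unadjusted p below 0.05 after knockout, in the direction opposite to Mthfd2. It was at 3.87, 2.71, 4.17 and 3.96 CPM in Atf3+/+FS6KD and at 6.19, 6.01, 6.02 and 3.22 CPM in Atf3-/-FS6KD. The first 3 Atf3-/-FS6KD hearts were above all 4 Atf3+/+FS6KD hearts, while replicate 4 was inside their range. The means were 3.68 ± 0.658 and 5.36 ± 1.43 CPM (SD, n = 4 each), and the log2 fold change was 0.52 (SE 0.22, 95% interval 0.02 to 1.03). The unadjusted p was 0.0431 and the edgeR adjusted p 0.476, so that Psat1 was not called. Within replicates 1 and 2 the log2 fold change was 0.89, and within replicates 3 and 4 it was 0.18. Among the AAV hearts, Psat1 was at 9.05, 5.17 and 6.35 CPM in the hearts labelled shCtrl, and at 6.19, 5.70 and 6.87 CPM in the hearts labelled shAtf3. The hearts labelled shAtf3 lay inside the range of the others, with a log2 fold change of -0.14 (95% interval -0.57 to 0.29).

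Phgdh, which commits carbon to serine, was at 1.96, 2.34, 2.69 and 1.74 CPM in Atf3+/+FS6KD and at 2.43, 2.89, 3.52 and 1.57 CPM in Atf3-/-FS6KD. Its lowest heart was again Atf3-/-FS6KD replicate 4, and the log2 fold change was 0.25 (95% interval -0.32 to 0.82, edgeR adjusted p = 0.757), or 0.0555 to 0.444 with 1 library left out. After AAV injection it was at 2.61 to 4.88 CPM in the hearts labelled shCtrl, and 2.22 to 4.04 CPM in the hearts labelled shAtf3 (-0.35, -0.95 to 0.25). Psph, the phosphatase of the last step, stayed between 5.79 and 6.78 CPM in all 8 hearts of the knockout experiment and between 6.09 and 7.71 CPM in the 6 of the AAV experiment. Its log2 fold changes were 0.09 (95% interval -0.10 to 0.29) and 0.13 (-0.11 to 0.36). Exons of Psph overlap those of Cct6a on the other strand.

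Asns, the asparagine synthetase and 1 of the 2 genes with the composite element shown above, was at 9.85, 5.85, 14.5 and 10.2 CPM in Atf3+/+FS6KD and at 12.0, 11.9, 13.9 and 5.61 CPM in Atf3-/-FS6KD. Both genotypes spanned nearly the same range, and the log2 fold change was 0.08 (95% interval -0.62 to 0.79, edgeR adjusted p = 0.948). Its lowest hearts were Atf3-/-FS6KD replicate 4 and Atf3+/+FS6KD replicate 2. Among the AAV hearts, Asns was at 23.9, 12.5 and 14.7 CPM in the hearts labelled shCtrl, and at 20.6, 18.8 and 20.1 CPM in the hearts labelled shAtf3. The heart labelled shCtrl replicate 1 was the highest of all 14, and the log2 fold change was 0.22 (95% interval -0.24 to 0.68). Without that library it was 0.54 (adjusted p = 0.0654), and without the heart labelled shCtrl replicate 2 it was 0.04 (adjusted p = 0.966), both in edgeR.

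In proline synthesis, Pycr1, the other gene with the composite element, catalyzes the last step. It was at 3.16, 2.0, 5.37 and 3.19 CPM in Atf3+/+FS6KD and at 4.95, 4.25, 4.88 and 2.34 CPM in Atf3-/-FS6KD. As for Asns, replicate 3 was the highest of the Atf3+/+FS6KD hearts and replicate 4 the lowest of the Atf3-/-FS6KD hearts, and the log2 fold change was 0.23 (95% interval -0.49 to 0.94), or 0.0525 to 0.534 with 1 library left out. After AAV injection Pycr1 was at 7.51, 3.59 and 5.15 CPM in the hearts labelled shCtrl, and 5.6, 4.84 and 5.71 CPM in the hearts labelled shAtf3 (-0.01, -0.53 to 0.51). Aldh18a1, the first step, was at 19.5, 13.1, 34.1 and 22.1 CPM in Atf3+/+FS6KD and at 17.9, 22.3, 21.7 and 15.3 CPM in Atf3-/-FS6KD. Replicate 3 of Atf3+/+FS6KD stood above the rest here as it did for Mthfd2. Its log2 fold changes were -0.22 (95% interval -0.79 to 0.36) after knockout and -0.21 (-0.48 to 0.07) in the hearts labelled shAtf3 as labelled.

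**Figure D3:**
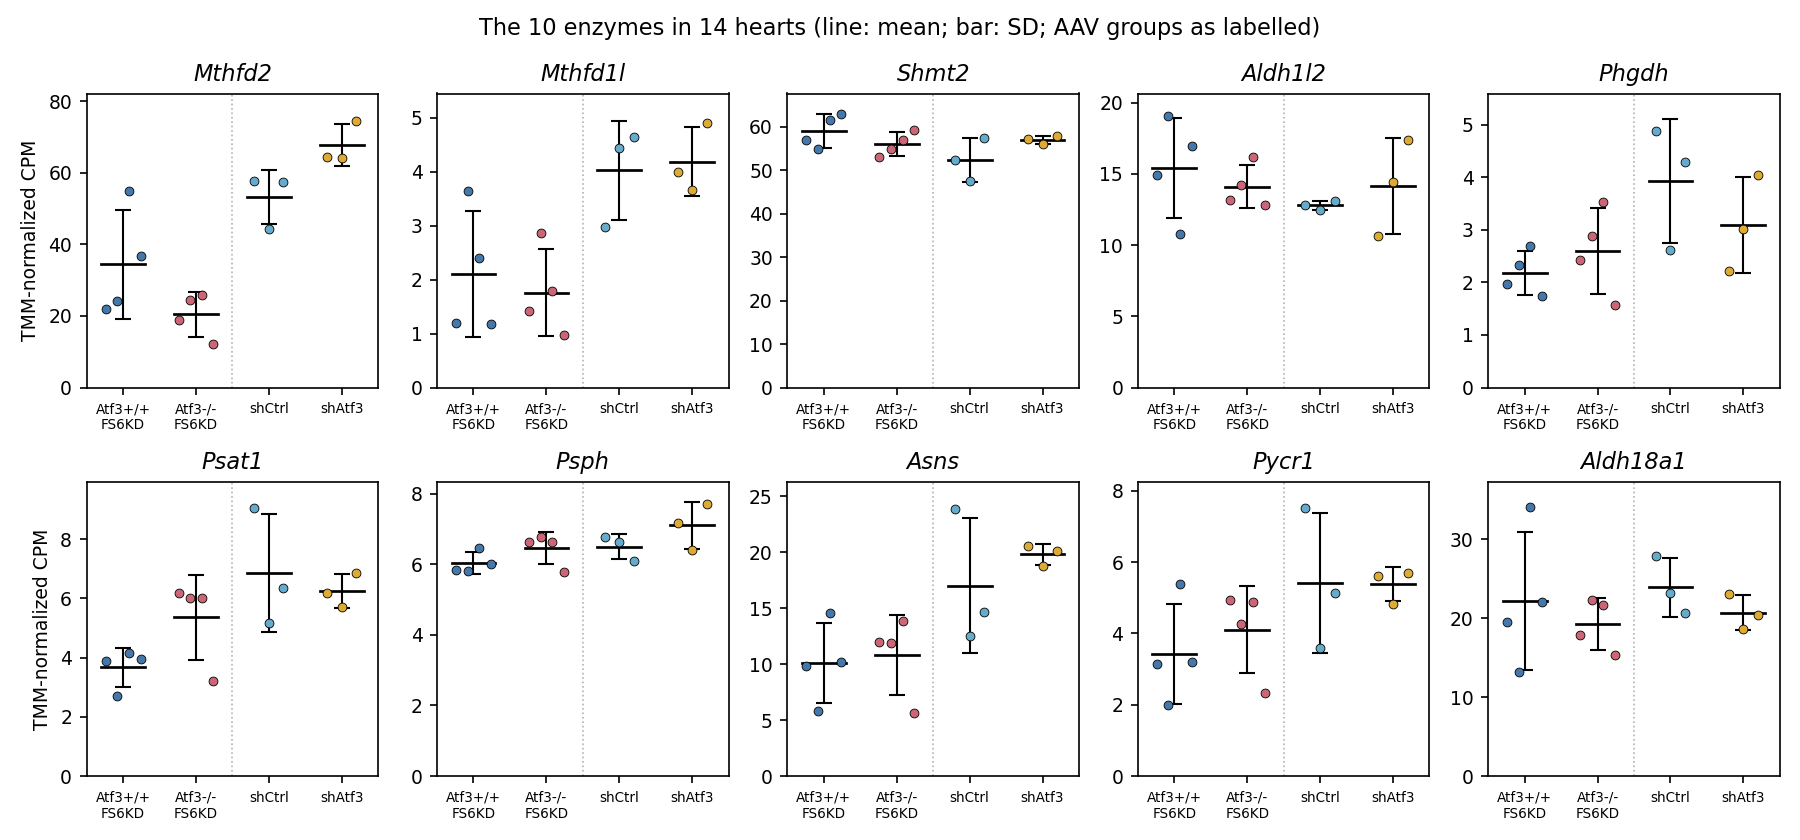
TMM-normalized CPM (y axes, each from 0) of the 10 enzymes in the 14 hearts by group as labelled (x axes), with mean and SD. The groups overlap in every panel except Mthfd2 in the AAV experiment, and replicate 4 of Atf3-/-FS6KD (the rightmost point of its group) is the lowest heart of its group for 9 of the 10 enzymes, all but Shmt2.

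Several of the enzymes moved together from heart to heart. After subtraction of the group mean of log2 CPM, Pearson's r over the 14 hearts was 0.972 between Asns and Pycr1, 0.947 between Asns and Psat1 and 0.918 between Psat1 and Pycr1. Aldh18a1 was also close to Asns (0.837). Mthfd2 had r of 0.804 with Pycr1, 0.798 with Asns, 0.796 with Aldh18a1 and 0.693 with Psat1. Its r with Aldh18a1 was 0.865 in the knockout experiment and 0.0941 in the AAV experiment, and that with Psph was 0.907 and 0.197. Over the 21 pairs among 7 enzymes (these 5 with Psph and Phgdh) r ran from 0.315 to 0.972, with a median of 0.669. The 24 pairs that include Shmt2, Mthfd1l or Aldh1l2 ran from -0.562 to 0.472 around a median of -0.00866. The median r was thus high among Mthfd2 and the enzymes of serine, asparagine and proline synthesis, and near 0 for the other 3 folate enzymes, although the ranges overlapped. The division into 7 and 3 was made after the values were seen, and values of 1 heart share a library and its depth, so these r are given as a description with no test. The median of the 21 pairs was 0.84 in the knockout experiment alone and 0.633 in the AAV experiment alone, where the lowest pair was at -0.0235. The 24 pairs with the other folate enzymes had medians of 0.049 and 0.122, but reached 0.717 in the knockout experiment and 0.803, between Mthfd2 and Shmt2, in the AAV experiment, which is above the median of the 21 there.

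**Figure D4:**
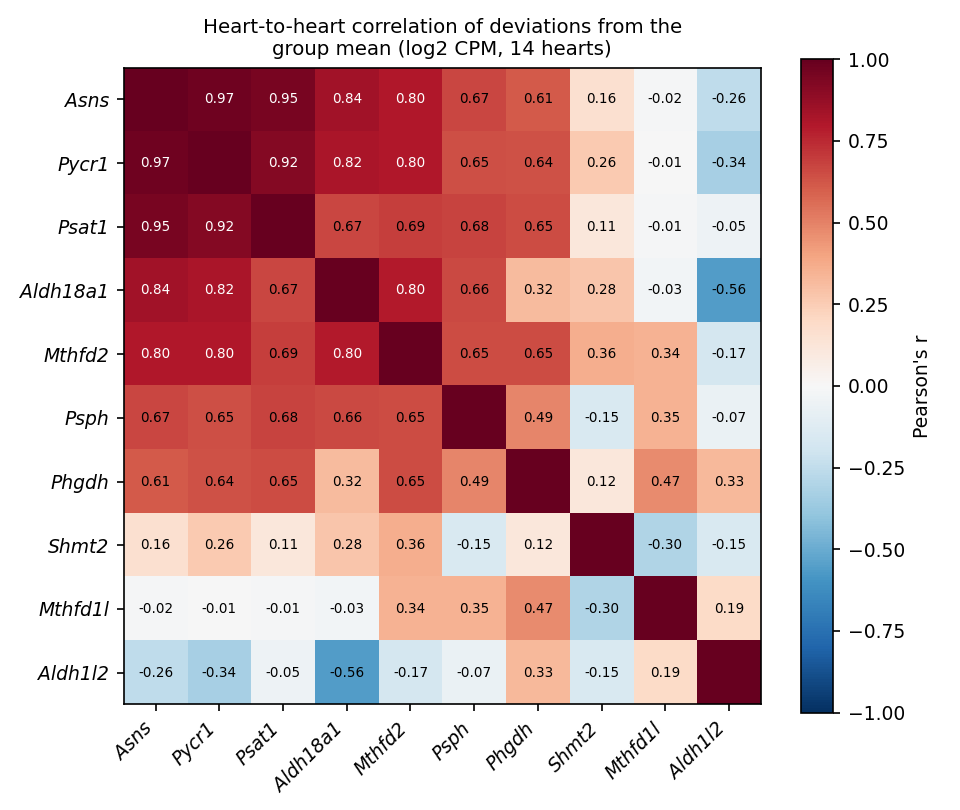
Pearson's r between each pair of enzymes over 14 hearts, from deviations of log2 CPM from the group mean (both axes list the enzymes, color gives r from -1 to 1). Asns, Pycr1 and Psat1 form the tightest block (0.918 to 0.972), while Shmt2, Mthfd1l and Aldh1l2 have low or negative r with most others.

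Without subtraction of group means, Mthfd2 was correlated with each of its 9 partners within each experiment. Over the 8 hearts of the knockout experiment the highest was Aldh18a1 (Pearson's r = 0.789, exact permutation p = 0.0261, adjusted over 9 partners 0.235, Spearman's rho = 0.786, exact permutation p = 0.0279, adjusted 0.251). Without the 2 hearts farthest from the median of Mthfd2 (Atf3+/+FS6KD replicate 3 and Atf3-/-FS6KD replicate 4) that r was 0.392. Leaving out its extremes narrows the range of Mthfd2, so a lower r cannot show that the relation rests on those hearts. For Asns r was 0.615 (exact permutation p = 0.103, adjusted 0.463, rho = 0.643, exact permutation p = 0.0962, adjusted 0.433) and -0.0292 without them. Leaving out the same hearts raised r for Shmt2 from 0.503 to 0.915 and for Aldh1l2 from -0.119 to 0.544, and lowered it for the other 7 partners. Over the 6 AAV hearts the highest was Shmt2 (r = 0.876, exact permutation p = 0.0292, adjusted 0.263, rho = 0.657, exact permutation p = 0.175, adjusted 0.639), which was 0.38 without the 2 farthest hearts. None of the 9 partners passed the adjusted threshold in either experiment.

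Among 10129 genes above 3 log2 CPM on average, those whose log2 CPM followed Mthfd2 most closely over the 8 hearts were Banf1 (r = 0.964), Ctsd (0.951), Acp2 (0.945), Tmem192 (0.941) and Atp8a2 (0.935). Over the 6 AAV hearts their r with Mthfd2 was 0.782, -0.361, 0.203, 0.508 and -0.533. Aldh18a1 ranked 117 in that list, Asns 583, Shmt2 1122 and Aldh1l2 6173, and the other members were below the level required.

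Because Asns, Psat1 and Pycr1 moved so closely together, Mthfd2 was also set against each of them within a library, as a ratio of counts that does not depend on scaling. These ratios were chosen after the values were seen and are a description with no test. The ratio of Mthfd2 to Asns was 2.23, 4.11, 3.78 and 3.60 in Atf3+/+FS6KD and 1.58, 2.07, 1.87 and 2.19 in Atf3-/-FS6KD. The ratio to Psat1 was 5.64, 8.88, 13.2 and 9.28 against 3.06, 4.09, 4.30 and 3.81. The ratio to Pycr1 was 6.95, 12.0, 10.2 and 11.5 against 3.83, 5.76, 5.30 and 5.24. In all 3 the genotypes did not overlap, although they did overlap for Mthfd2 alone, and the 4 Atf3-/-FS6KD hearts were closer to each other than they were in CPM. Relative to the mean log2 level of Asns, Psat1 and Pycr1, Mthfd2 was the only member that was lower in Atf3-/-FS6KD with no overlap, as were 0.25% of the 15592 genes tested. Only the lower direction was counted. These partners varied with Mthfd2 across the knockout hearts (r = 0.84, 0.719 and 0.838 after subtraction of group means), and other genes were not matched for this. The share is therefore no fair background for Mthfd2. The partners' own log2 fold changes after knockout were 0.08, 0.52 and 0.23, so part of the lower ratios lies in the partners.

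The ratio depended on the partner, and ratios to Aldh18a1 and Psph, which also varied with Mthfd2, were not taken. Set against Shmt2, Mthfd2 was at 0.385, 0.439, 0.890 and 0.583 in Atf3+/+FS6KD and at 0.357, 0.448, 0.455 and 0.207 in Atf3-/-FS6KD, and these groups overlapped. Set against Atf5 it was at 0.353 to 0.463 in Atf3+/+FS6KD and at 0.184 to 0.382 in Atf3-/-FS6KD, also with overlap. In the AAV experiment the ratio to Atf5 was 0.568 to 0.635 in the hearts labelled shCtrl, and 0.646 to 0.7, without overlap, in the hearts labelled shAtf3. In the AAV experiment the ratio to Asns was 2.42, 3.55 and 3.9 in the hearts labelled shCtrl, and 3.12, 3.43 and 3.70 in the hearts labelled shAtf3, again with overlap. There the ratio to Psat1 was 6.38, 8.58 and 9.03 against 10.4, 11.3 and 10.8, higher in all 3 hearts labelled shAtf3. The ratio to Pycr1 was 7.70, 12.4 and 11.1 against 11.5, 13.3 and 13, with overlap, and that to Shmt2 was 1.10, 0.936 and 0.999 against 1.13, 1.15 and 1.29, without overlap. Relative to the mean of Asns, Psat1 and Pycr1, 2.49% of 15225 genes were lower in the hearts labelled shAtf3 with no overlap, and of the 10 enzymes Psat1, itself part of that mean, was the 1 among them. Genes that were higher with no overlap were not counted, so the higher ratios above have no share of all genes beside them.

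**Figure D5:**
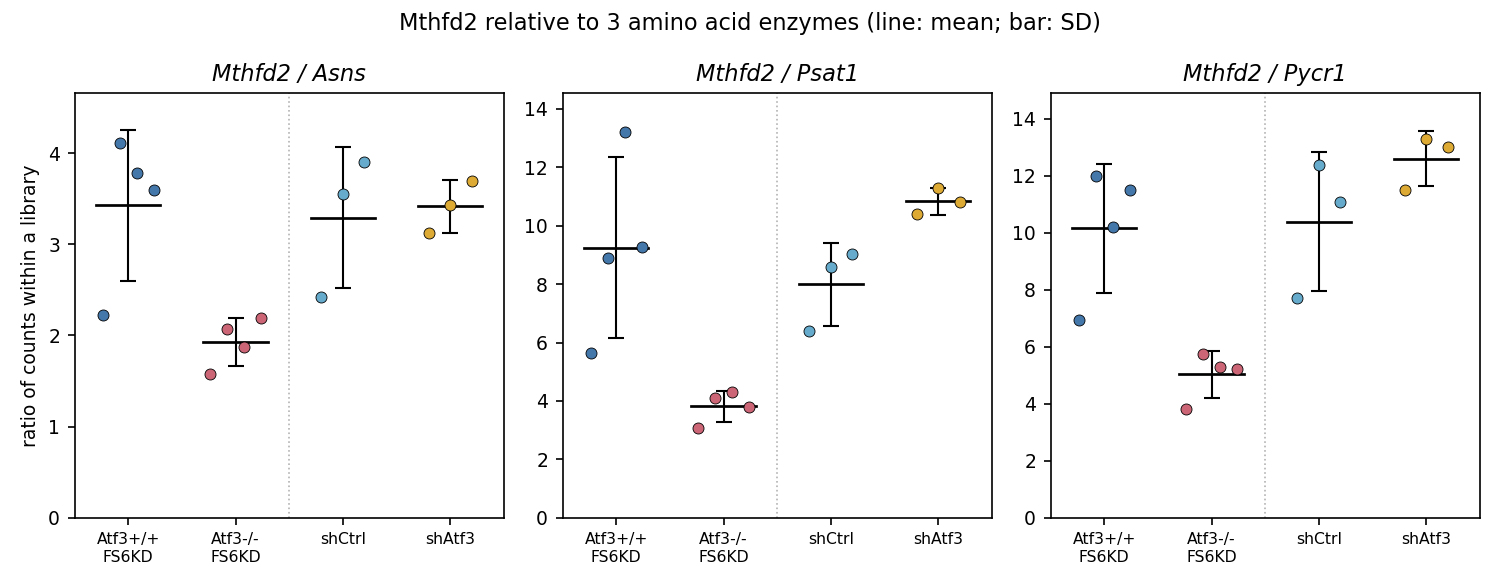
Ratio of Mthfd2 counts to those of Asns, Psat1 and Pycr1 within each library (y axes, from 0) by group as labelled (x axes), with mean and SD. In the knockout experiment the 4 Atf3-/-FS6KD hearts (1.58 to 2.19 for Asns, 3.06 to 4.30 for Psat1, 3.83 to 5.76 for Pycr1) sit below all 4 Atf3+/+FS6KD hearts in each panel.

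Levels between genes were compared as CPM per kilobase of exonic length in GENCODE. In the knockout experiment the medians over 8 hearts were 18.3 for Shmt2, 6.97 for Mthfd2, 5.06 for Aldh18a1, 4.04 for Asns, 1.94 for Aldh1l2 and 1.44 for Psph. Phgdh (0.96), Psat1 (0.956) and Pycr1 (0.946) were nearly equal, with ranges of 0.631 to 1.42, 0.637 to 1.46 and 0.508 to 1.37, and Mthfd1l was the lowest (0.36). Shmt2 stood above all others in each heart of the knockout experiment (17.1 to 20.3, against 3.52 to 15.7 for Mthfd2), whereas Mthfd2, Aldh18a1 and Asns overlapped in range. Among the AAV hearts the order began with Shmt2 (median 18.2) and Mthfd2 (17.5), whose ranges overlapped (15.2 to 18.6 and 12.7 to 21.3), followed by Asns (7.10) and Aldh18a1 (5.36).

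The regulators known to act on these genes were measured in the same hearts. Atf4 was at 112.8, 136.1, 128.8 and 108.9 CPM in Atf3-/-FS6KD and at 114.5, 116.0, 111.7 and 104.1 CPM in Atf3+/+FS6KD, a log2 fold change of 0.13 (95% interval -0.06 to 0.31). Atf5, a related factor of the mitochondrial stress response, was at 62.1, 59.1, 118.4 and 79.5 CPM in Atf3+/+FS6KD and 59.0, 64.4, 107.9 and 66.8 CPM in Atf3-/-FS6KD (-0.10, -0.67 to 0.47). Replicate 3 was the highest heart of each genotype for Atf5, as it was for Mthfd2. In the hearts labelled shAtf3 the log2 fold change of Atf4 was -0.13 (95% interval -0.29 to 0.03) and that of Atf5 was 0.18 (-0.07 to 0.43). Ddit3, which encodes CHOP, had log2 fold changes of 0.13 (95% interval -0.23 to 0.50) after knockout and -0.01 (-0.24 to 0.22) in the AAV comparison. Of the 15 genes in the list of stress response regulators, 14 passed the filter, with 10 higher and 4 lower after knockout and 3 higher and 11 lower in the hearts labelled shAtf3. Of them 2 were higher at an unadjusted p below 0.05 after knockout (10.1% of all genes had such a p). In the AAV comparison 5 were lower at such a p (12.7% of all genes), and 5 did not overlap (18.4% of all genes). None was called by edgeR. The smallest p after knockout were those of Trib3, a pseudokinase induced by ATF4 (0.59, SE 0.23, edgeR adjusted p = 0.441), and of Atf3 itself (1.14, SE 0.49, edgeR adjusted p = 0.480). Those of the AAV comparison were Nupr1 (-0.81, SE 0.18, edgeR adjusted p = 0.121) and Myc (-0.71, SE 0.16, edgeR adjusted p = 0.126). Both were below the threshold with DESeq2 (adjusted p = 0.00295 and 0.0247), unlike any of the 10 enzymes.

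Relatives of the 10 enzymes were measured beside them. Mthfd2l, the paralog of Mthfd2 in mitochondria, had log2 fold changes of 0.08 (95% interval -0.16 to 0.32) after knockout and 0.04 (-0.20 to 0.28) in the AAV comparison. Mthfd1, the cytosolic enzyme that uses the formate, had 0.01 (-0.13 to 0.14) and 0.03 (-0.12 to 0.19). Shmt1, the cytosolic counterpart of Shmt2, had -0.06 (-0.59 to 0.47) and 0.28 (0.11 to 0.45), the latter with an edgeR adjusted p of 0.190 and no overlap between groups. Aldh1l1, the cytosolic counterpart of Aldh1l2, had -0.65 (-1.34 to 0.03, or -0.883 to -0.341 with 1 library left out) and -0.24 (-0.94 to 0.46). Pycr3, listed under its older name Pycrl, had -0.02 (-0.24 to 0.20) and 0.26 (0.02 to 0.49). None of these 5 relatives was called in either comparison.

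Neighboring pathways were described by lists. Of 21 cytosolic and other folate genes, 18 passed the filter, with 7 higher and 11 lower after knockout (median -0.0113) and 8 higher and 10 lower in the hearts labelled shAtf3 (median -0.0249). The smallest p after knockout were those of Sardh (-0.24, edgeR adjusted p = 0.487), which breaks down sarcosine in mitochondria, and Aldh1l1 (edgeR adjusted p = 0.512). Those of the AAV comparison were Shmt1 and Sardh (-0.32, edgeR adjusted p = 0.196). Of 11 genes of serine, glycine and cysteine use 8 passed, 3 higher and 5 lower in both comparisons (medians -0.0841 and -0.0276). Srr, serine racemase (-0.11, edgeR adjusted p = 0.487), and Cth, which makes cysteine (-0.40, edgeR adjusted p = 0.568), came first after knockout. Mat2a (0.14) and Sptlc1 (-0.11), which use methionine and serine, came first in the AAV comparison. At an unadjusted p below 0.05 the folate list had 1 lower after knockout and 2 higher and 3 lower in the AAV comparison, and the list of serine, glycine and cysteine use had 1 lower and 0. Of all genes tested, 10.1% after knockout and 12.7% in the AAV comparison had such a p. No gene of these lists was called by edgeR.

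Of 15 genes of glutamate, proline and aspartate metabolism 13 passed the filter. After knockout 2 were higher and 11 lower (median -0.122), of which 3 had an unadjusted p below 0.05 (10.1% of all genes did). Glul, glutamine synthetase, had means of 578 ± 57.3 and 320 ± 103 CPM (SD, n = 4 each) with no overlap, a log2 fold change of -0.85 (SE 0.21, unadjusted p = 0.00272, edgeR adjusted p = 0.313). It was not called by edgeR and was called by DESeq2 (adjusted p = 0.00514). Got1, the cytosolic aspartate aminotransferase, had -0.15 (edgeR adjusted p = 0.436). For the AAV groups 9 of the 13 were higher and 4 lower (median 0.0176), 3 and 2 of them at an unadjusted p below 0.05 (12.7% of all genes), and Glul was at 0.00 (95% interval -0.17 to 0.18). There the smallest p were those of the urea cycle enzymes Asl (-0.43, edgeR adjusted p = 0.214) and Ass1 (-0.46, edgeR adjusted p = 0.227).

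Of 13 amino acid transporters 12 passed, 10 higher and 2 lower after knockout (median 0.249) and 5 higher and 7 lower in the hearts labelled shAtf3 (median -0.0806). At an unadjusted p below 0.05 were 3 higher and 1 lower after knockout (10.1% of all genes had such a p). As many did not overlap between genotypes (5.71% of all genes). In the AAV comparison 1 was higher and 2 were lower at such a p (12.7% of all genes). After knockout Slc25a13, a mitochondrial aspartate-glutamate carrier, was lower with no overlap (268 ± 6.83 and 218 ± 15.7 CPM, SD, n = 4 each, log2 fold change -0.30, edgeR adjusted p = 0.253). It was called by DESeq2 (adjusted p = 0.0024). The glycine transporter Slc6a9 had 0.62 (edgeR adjusted p = 0.392). For the AAV groups the carrier Slc25a12 had 0.20 (edgeR adjusted p = 0.222) and the serine and alanine transporter Slc1a4 had -0.47 (edgeR adjusted p = 0.247). All 16 cytosolic aminoacyl-tRNA synthetases passed, with 6 higher and 10 lower in both comparisons and medians of -0.024 and -0.0145. Their smallest p were those of Tars (0.13) and Kars (-0.07) after knockout and of Cars (-0.17) and Aars (-0.14) in the AAV comparison, none of them below 0.05 before adjustment.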

How the data were processed

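RNA had been isolated with an RNeasy fibrous kit, and libraries were made with a TruSeq Stranded mRNA kit and sequenced single-end on a NovaSeq6000. Per the study's methods and the submitters' processing notes, the authors mapped reads to GRCm38.p6 and counted them per gene with featureCounts 2.0.0. The aligner and strand setting are not given in the sources used here. The deposited values are estimated counts per gene, of which 19.3 to 24.4% per library are not whole, as fractional counting gives, and they were rounded before the tests. No column of the deposited tables was left out.

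Groups followed the sample labels. Genes above 1 CPM in at least 1 library were tested with edgeR 4.0.16 (quasi-likelihood test, TMM, two-sided, Benjamini-Hochberg over all genes tested, threshold 0.05), as 4 against 4, 3 against 3 and an interaction over 14 libraries. CPM are TMM-normalized unless said otherwise, log2 CPM used a prior count of 2, the SE came from the fold change and the test statistic, and 95% intervals are unadjusted. DESeq2 1.42.0, limma 3.58.1, other scalings and filters, a replicate block, depth batches and single libraries left out were the alternatives. Only the main edgeR fits of the knockout and AAV comparisons were tested on simulated data. Counting error is small for well-counted genes at these depths and larger for the scarcest members, such as Mthfd1l. The p-values measure the spread between libraries, 1 per mouse as far as the labels say. In the knockout experiment that spread also holds any difference between the shallower and the deeper replicates. The main fit had no term for depth. No pair of libraries in a group agreed within counting noise (chi-square per gene 6.9 to 93.3).

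The members, the gene lists, the marker lists and the motifs were chosen with earlier results of these data known. Named genes were the 10 members, their nearest relatives (5, with 1 other not reported here), 4 regulators, the 2 genes with the smallest p of each list and comparison, and the 5 most like Mthfd2. Gene positions and promoters came from RefSeq (GRCm38.p6) and exonic lengths from GENCODE M21.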

Additional observations from a re-analysis of the deposited data

Results flagged for a closer look

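A single library lay far from the rest of its group for 2 of the 10 enzymes, and for both it was replicate 4 of Atf3-/-FS6KD. Psat1 was at 3.22 CPM in that heart and at 6.01 to 6.19 CPM in the other 3, so that the gap to the nearest heart took 0.94 of the whole range of the group. Psph was at 5.79 CPM in that heart and at 6.62 to 6.78 CPM in the other 3, a gap of 0.84 of the range. Both are above Dixon's 95% critical value for 4 libraries, in 20 groups tested, where chance alone flags about 1 group in 20. The same heart was the lowest of its group for 9 of the 10 enzymes, and without it the log2 fold change of Psat1 after knockout was 0.71 in place of 0.52 (edgeR adjusted p = 0.357). Its total count of 124118045 was the highest of its group, and the cause was not tested.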

How the results depend on the processing

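No member was called in either comparison or in the difference between the experiments under any alternative (0 in all). Single libraries left out moved Mthfd2 from -0.926 to -0.446 after knockout, from 0.232 to 0.412 in the AAV comparison and from 0.8 to 1.28 in the difference, and the member medians from -0.0774 to 0.0974 and from -0.0422 to 0.14. For the other values of the members, 440 of 479 alternative values kept their sign and their side of the threshold and 39 reversed, 23 of them with 1 library left out. For the other named genes 570 of 602 did, 25 reversed and 7 became called: with DESeq2 Glul (-0.858) and Slc25a13 (-0.302) after knockout and Nupr1 (-0.808) and Myc (-0.704) in the AAV comparison, without the filter Nupr1 (-0.803) and Myc (-0.699), and Nupr1 without the heart labelled shCtrl replicate 3 (-1). The cause was not tested.

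Reversed log2 fold changes after knockout were, with replicates 1 and 2 alone, Aldh18a1 0.298, Atf5 0.029, Mthfd2l -0.00494 and Shmt1 0.351. With replicates 3 and 4 alone they were Aldh1l2 0.0609, Psph -0.00865, Asns -0.346, Pycr1 -0.247, Mthfd1 -0.0198 and Pycrl 0.00801, and with library size alone Pycrl 0.0426. In the AAV comparison they were Pycr1 with limma 0.0514 and with the replicate block 0.0317, and with library size alone Mthfd2l -0.000385 and Mthfd1 -0.00571. In the difference between the experiments they were Aldh18a1 with limma -0.0612, with library size alone -0.0923 and with the replicate block -0.0351, and Psph with library size alone -0.0649. With the AAV groups exchanged, chosen after seeing the data, every AAV value turns its sign, 0 members and 0 genes were called for the difference, and it reversed for Shmt2 (-0.0469), Aldh1l2 (-0.0241), Phgdh (0.0923), Psph (-0.223) and Asns (-0.297).

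With 1 library left out, values that crossed 0 after knockout ran from -0.573 to 0.108 for Mthfd1l, -0.0999 to 0.309 for Asns, -0.395 to 0.0682 for Aldh18a1, -0.336 to 0.154 for Atf5, -0.000837 to 0.118 for Mthfd2l, -0.0195 to 0.0394 for Mthfd1, -0.179 to 0.172 for Shmt1 and -0.0904 to 0.0306 for Pycrl. In the AAV comparison they ran from -0.123 to 0.174 for Mthfd1l, -0.0308 to 0.313 for Aldh1l2, -0.303 to 0.119 for Psat1, -0.235 to 0.303 for Pycr1, -0.112 to 0.0804 for Ddit3, -0.00967 to 0.0913 for Mthfd1 and -0.536 to 0.0968 for Aldh1l1. In the difference they ran from -0.0272 to 0.619 for Mthfd1l, -0.0213 to 0.108 for Psph, -0.0801 to 0.471 for Asns, -0.528 to 0.0888 for Pycr1 and -0.27 to 0.192 for Aldh18a1. Values of other members, which did not cross 0, ran, after knockout, from 0.0555 to 0.444 for Phgdh, 0.0525 to 0.534 for Pycr1, -0.267 to -0.0118 for Aldh1l2, -0.113 to -0.0452 for Shmt2 and 0.0688 to 0.143 for Psph. In the AAV comparison they ran from -0.587 to -0.156 for Phgdh, 0.0376 to 0.544 for Asns, -0.304 to -0.0803 for Aldh18a1, 0.0543 to 0.192 for Shmt2 and 0.0654 to 0.205 for Psph. Among genes that are no members, they ran after knockout from -0.883 to -0.341 for Aldh1l1, 0.875 to 1.89 for Atf3, 0.0679 to 0.175 for Atf4 and 0.0286 to 0.284 for Ddit3, and in the AAV comparison from -0.17 to -0.0634 for Atf4, 0.0823 to 0.271 for Atf5 and 0.00696 to 0.0661 for Mthfd2l. The 2 members at an unadjusted p below 0.05 after knockout became 1 with library size alone and 1 with the replicate block.

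No pairing of the hearts by replicate number was evident, although so few libraries per group cannot exclude one. Same-numbered deviations correlated at 0.0469 to 0.234 after knockout and at -0.0576 to 0.242 in the AAV experiment, and not every heart correlated best with its own number. With the replicate block 0 members were called, genes called went from 0 to 0 and from 82 to 20, and Mthfd2 was at -0.729 and 0.354. Genes called in all by DESeq2 were 208 after knockout, 308 in the AAV comparison and 669 in the difference, against 0, 82 and 26 by edgeR. Leaving out 1 library gave 0 to 15, 1 to 285 and 0 to 168. With library size alone, the difference called 205 genes, with limma 48, without the filter 61 and with the block 56. Without the filter 2 genes were called after knockout and 304 in the AAV comparison, and replicates 3 and 4 alone called 8. The fewest counts behind a value of a member were 50.5, for Mthfd1l in replicate 1 of each genotype.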
